A study of Mus musculus with 6 samples.

Results

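Genes that make, break down, transport and sense prostaglandins were followed in RAW264.7 cells, a mouse macrophage line, on a pair of implant surfaces. The 10 genes were Pla2g4a, Ptgs1, Ptgs2, Ptges, Hpgd, Ptgr1, Slco2a1, Ptger2, Ptger4 and Ptgir, picked by name with the difference between the surfaces already known. A probe set named for the gene was matched for 9 of the 10, out of 19505 named genes, and each of the 9 had a single probe set. Ptgs1, encoding cyclooxygenase 1, had no match in the annotation used and was not analysed here. The control group was 3 arrays of cells kept for 3 days on pristine polyetheretherketone (PEEK), an implant polymer, and the other group was 3 arrays of cells kept equally long on PEEK with a modified surface. No stimulus beyond the surface is named in the labels, which also do not say how the surface was modified, and both groups are the same cell line in the same serum-containing medium. All values are deposited log2 signals, so a difference of 1 is a doubling.

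Prostaglandins are short-lived lipid signals made from arachidonic acid. A cytosolic phospholipase frees the fatty acid from membranes, cyclooxygenases turn it into an unstable endoperoxide, and terminal synthases convert that into prostaglandin E2, prostacyclin and relatives. Uptake into the cell followed by oxidation and reduction ends the signal, and receptors coupled to G proteins read it at the cell surface. In macrophages, inducible cyclooxygenase and prostaglandin E synthase are classic products of inflammatory activation, and the receptors EP2, EP4 and IP raise cyclic AMP.

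The promoter sequences below, from RefSeq on GRCm38.p6, are those of a neighbouring pair with unlike values (Ptgs2 and Pla2g4a), of the gene with the largest increase (Hpgd) and of the receptors that raise cyclic AMP (Ptger2, Ptgir and Ptger4). A promoter was found for all 10 genes. Pla2g4a had 2 annotated starts, of which only the most 5′ was searched and is shown. Each line is the 250 bases before the annotated start, 5′ to 3′ on the strand of the gene, with matches to the searched motifs in capitals.
Ptgs2, chr1:150099781-150100030, plus strand: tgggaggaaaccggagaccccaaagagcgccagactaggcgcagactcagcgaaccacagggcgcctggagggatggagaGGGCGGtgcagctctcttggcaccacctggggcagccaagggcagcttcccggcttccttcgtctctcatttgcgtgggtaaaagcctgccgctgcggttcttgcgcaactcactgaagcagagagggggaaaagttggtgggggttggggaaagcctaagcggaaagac
Pla2g4a, chr1:149961291-149961540, minus strand: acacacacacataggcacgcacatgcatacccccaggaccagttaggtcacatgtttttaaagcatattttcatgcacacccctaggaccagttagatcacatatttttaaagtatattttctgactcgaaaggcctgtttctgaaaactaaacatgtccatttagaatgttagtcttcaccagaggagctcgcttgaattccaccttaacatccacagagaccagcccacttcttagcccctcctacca
Hpgd, chr8:56294302-56294551, plus strand: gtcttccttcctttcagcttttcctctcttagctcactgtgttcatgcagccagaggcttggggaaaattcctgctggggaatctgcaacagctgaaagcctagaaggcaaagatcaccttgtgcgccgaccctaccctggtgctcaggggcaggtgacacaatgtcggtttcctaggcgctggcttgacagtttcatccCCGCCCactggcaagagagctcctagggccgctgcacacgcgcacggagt
Ptger2, chr14:44987861-44988110, plus strand: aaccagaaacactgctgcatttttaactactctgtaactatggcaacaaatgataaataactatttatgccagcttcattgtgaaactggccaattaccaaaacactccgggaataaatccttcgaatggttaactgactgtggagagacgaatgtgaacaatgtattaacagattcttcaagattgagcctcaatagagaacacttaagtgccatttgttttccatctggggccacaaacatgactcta
Ptgir, chr7:16906240-16906489, plus strand: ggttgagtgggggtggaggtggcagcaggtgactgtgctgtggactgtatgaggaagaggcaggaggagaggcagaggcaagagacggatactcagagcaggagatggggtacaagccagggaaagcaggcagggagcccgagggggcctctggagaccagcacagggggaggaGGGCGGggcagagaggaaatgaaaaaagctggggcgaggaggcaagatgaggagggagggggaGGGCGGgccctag
Ptger4, chr15:5244188-5244437, minus strand: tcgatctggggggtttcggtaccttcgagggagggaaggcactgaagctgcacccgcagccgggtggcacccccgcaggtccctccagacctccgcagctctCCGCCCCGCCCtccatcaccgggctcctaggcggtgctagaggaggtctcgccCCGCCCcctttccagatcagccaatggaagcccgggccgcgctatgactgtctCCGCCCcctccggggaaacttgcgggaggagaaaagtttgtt

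The searched motifs were the TATA box (TATAAA), the cyclic AMP response element in full (TGACGTCA) and as its short core (TGACG), the E-box CACGTG, the AP-1 site (TGANTCA), the C/EBP site (TTNNGCAAT), the GC box (GGGCGG) and the NF-kB consensus, each on both strands from 250 bases before to 50 bases after the start. Only these strings were searched, so near matches stay in lower case. An example is ttgcgcaac in the Ptgs2 line, which differs from the C/EBP string in its last letter. The lack of capitals is therefore not a lack of sites. All capitals in the 6 sequences are GC boxes, which 35.7% of 32851 promoters of this length hold. Ptger4 had 4 of them, Ptgir 2, Ptgs2 1 and Hpgd 1, whereas the Ptger2 and Pla2g4a windows had none. Just after the annotated start of Ptgs2, a short core of the cyclic AMP response element (20.8% of promoters) overlapped an E-box (7.15% of promoters). It is shown in capitals in these 30 bases, bases 3 to 32 counted from the annotated start. Whether transcription begins at that start in these cells was not tested.
Ptgs2, chr1:150100033-150100062, plus strand: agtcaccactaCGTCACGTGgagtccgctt
Hpgd had a TATA box after its annotated start (13.6% of promoters), and Ptger2 a C/EBP match after its start (2.18% of promoters). Base composition differed widely among the receptor promoters: the 250 bases were 38% G and C for Ptger2, 63.6% for Ptgir and 66.8% for Ptger4, against a median of 52.4% over all promoters. The match of letters is a description of these windows and shows no binding.

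On modified PEEK the inducible synthesis genes Ptgs2 and Ptges were lower. Of the breakdown enzyme genes Hpgd was higher and Ptgr1 lower, and the cyclic AMP-coupled receptor genes went in opposite directions. Ptgs2 was 5.68-fold lower (difference -2.51 ± 0.12 SE on the log2 scale, 3 arrays per surface), Ptgir 4.52-fold lower and Ptger2 3.14-fold lower. Hpgd was 8.41-fold and Ptger4 1.77-fold higher. Pla2g4a and Slco2a1 overlapped between the surfaces. The arrays did not overlap for 7 of the 9 genes, where 28.8% of all genes did not overlap. In the limma fit over all genes, 7 of the 9 passed an adjusted p under 0.05 (10.4% of all genes), 2 of them as higher (5.24% of all genes) and 5 as lower (5.15% of all genes). These genes were chosen with this contrast known, so the counts and differences describe them and support nothing further. The median difference of the 9 was -0.50, beside 0.0088 for all genes, and the median size of the difference was 0.82, beside 0.15.

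**Figure D1:**
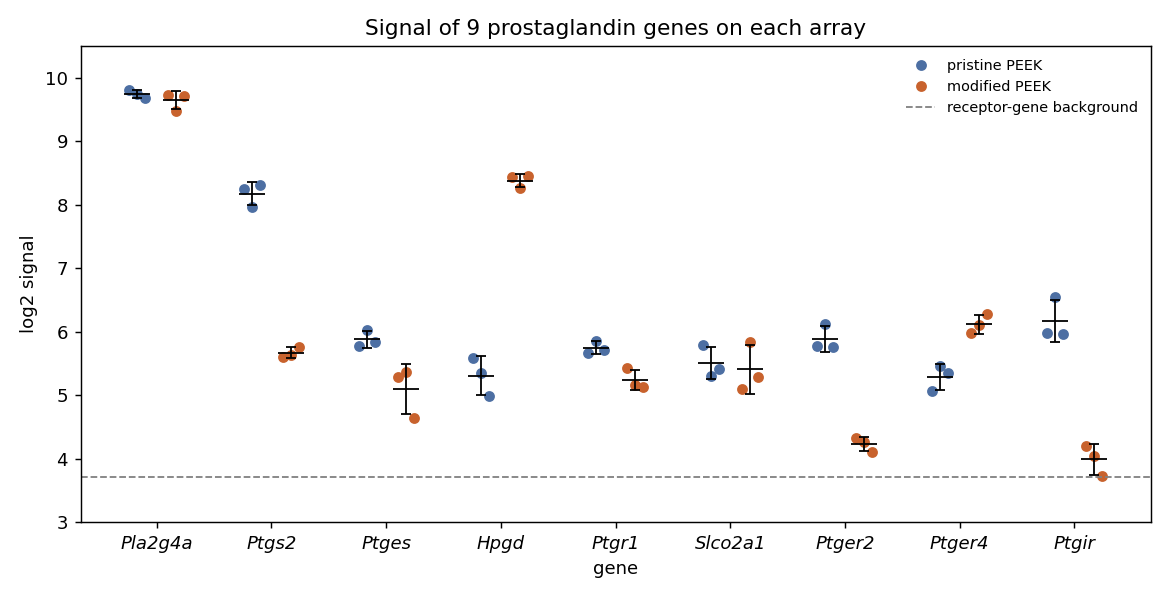
Log2 signal (y axis) of the 9 matched prostaglandin genes (x axis, in the order synthesis, breakdown and uptake, receptors) on the 3 pristine PEEK arrays (blue) and 3 modified PEEK arrays (orange); black marks are the mean and SD, and the dashed line is the receptor-gene background of 3.72. The surfaces do not overlap for any gene except Pla2g4a and Slco2a1, and Ptgir on modified PEEK lies next to the background.

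Pla2g4a encodes the cytosolic phospholipase A2 that frees arachidonic acid. Its signal was 9.81, 9.74 and 9.68 on pristine and 9.73, 9.48 and 9.71 on modified PEEK. The lowest array was on modified PEEK, but the ranges overlapped. The means were 9.74 ± 0.06 and 9.64 ± 0.14 (SD, n = 3), a difference of -0.10 ± 0.10 (SE), and the gene stood at the 96.8th percentile of mean signal over all genes.

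Ptgs2 encodes cyclooxygenase 2, the inducible enzyme of the committed step. Its signal was 8.24, 7.97 and 8.31 on pristine PEEK, and 5.60, 5.64 and 5.76 on modified PEEK. The lowest pristine array lay 2.21 above the highest modified array, and the SD was 0.18 and 0.08. Ptgs2 ranked 11th of 19505 genes by the size of its difference, in either direction.

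Ptges encodes microsomal prostaglandin E synthase 1, which acts after cyclooxygenase to form prostaglandin E2. Its signal was 5.77, 6.03 and 5.84 on pristine and 5.29, 5.36 and 4.64 on modified PEEK. Every modified array was below every pristine one, by 0.41 at the nearest, with replicate 3 of modified PEEK the lowest. The means were 5.88 ± 0.13 and 5.10 ± 0.40 (SD, n = 3), 1.72-fold apart. Without modified PEEK replicate 3 the difference of -0.78 became -0.55. The threshold was then still passed, but not when any of the pristine PEEK arrays, or modified PEEK replicate 1, was left out.

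Hpgd encodes 15-hydroxyprostaglandin dehydrogenase, which starts the inactivation of prostaglandins. Its signal was 5.59, 5.35 and 4.99 on pristine PEEK and 8.43, 8.27 and 8.44 on modified PEEK. The gap between the nearest arrays of the surfaces was 2.68, against SDs of 0.30 and 0.10. No other gene of the 19505 had a larger increase, and Hpgd ranked 6th by size in either direction. Left out 1 at a time, the 6 arrays gave differences from 2.91 to 3.21.

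Ptgr1 encodes prostaglandin reductase 1, which acts on the oxidised product and also on leukotriene B4. Its signal was 5.66, 5.86 and 5.71 on pristine and 5.43, 5.16 and 5.14 on modified PEEK, so it was lower on modified PEEK where Hpgd was higher. The groups were apart by 0.24 at the nearest, and the difference was -0.50 ± 0.11 (SE), or 1.42-fold. The threshold was passed with modified PEEK replicate 1 left out and missed with any other single array left out, and these 6 differences ran from -0.60 to -0.45.

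Slco2a1 encodes the transporter that takes prostaglandins up for oxidation. Its signal was 5.79, 5.31 and 5.41 on pristine and 5.09, 5.84 and 5.29 on modified PEEK. The highest and the lowest of the 6 arrays were both on modified PEEK, and the groups overlapped. The difference was -0.10 ± 0.21 (SE), and its sign turned without pristine PEEK replicate 1 (0.0470) or modified PEEK replicate 1 (0.0600).

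Ptger2 encodes EP2, a prostaglandin E2 receptor that raises cyclic AMP. Its signal was 5.77, 6.12 and 5.76 on pristine and 4.32, 4.27 and 4.11 on modified PEEK. All modified arrays were lower, with a gap of 1.44, and lay above the background of 3.72 that 95% of 1412 olfactory and vomeronasal receptor genes fall below. The means were 5.88 ± 0.21 and 4.23 ± 0.11 (SD, n = 3).

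Ptger4 encodes EP4, the other prostaglandin E2 receptor that raises cyclic AMP. Its signal was 5.06, 5.46 and 5.36 on pristine and 5.97, 6.10 and 6.27 on modified PEEK. All modified arrays were higher, with a gap of 0.52, so the EP2 and EP4 genes differed between the surfaces in opposite directions (-1.65 ± 0.13 and 0.82 ± 0.13, difference ± SE). The 6 fits without 1 array gave differences for Ptger4 from 0.71 to 0.91.

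Ptgir encodes IP, the prostacyclin receptor, which also raises cyclic AMP. Its signal was 5.98, 6.55 and 5.97 on pristine and 4.20, 4.04 and 3.73 on modified PEEK. The gap between the surfaces was 1.76, and replicate 3 of modified PEEK was at the background. The means were 6.17 ± 0.33 and 3.99 ± 0.24 (SD, n = 3), and so near the background a fold of 4.52 can understate the true ratio. Ptgir ranked 21st and Ptger2 53rd by size among all genes. In RNA from a whole culture, less RNA per cell and fewer cells with the message cannot be told apart.

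**Figure D2:**
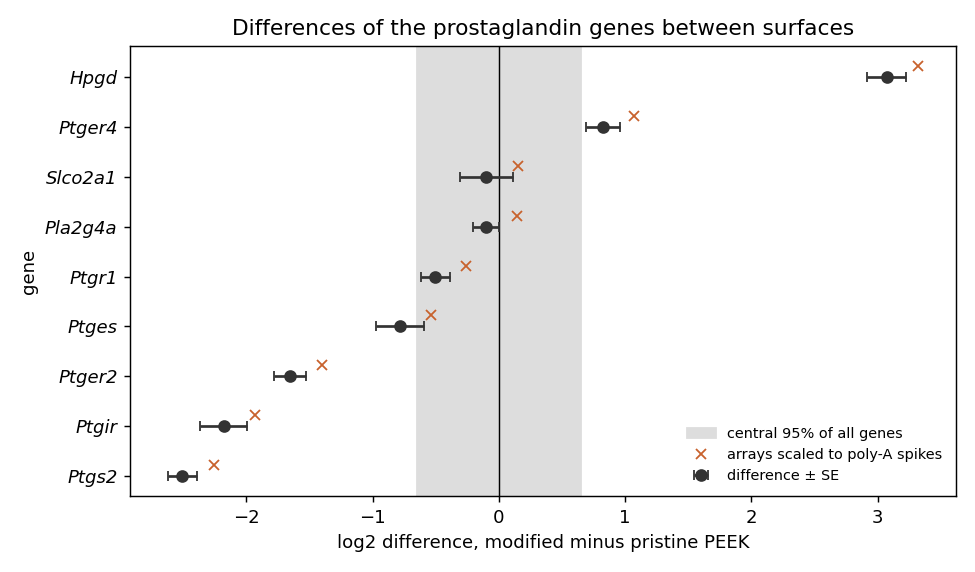
Log2 difference, modified minus pristine PEEK (x axis), of the 9 genes (y axis) with the SE of the limma fit; the grey band holds the central 95% of all 19505 genes, -0.65 to 0.65, and crosses are the differences with arrays scaled to the poly-A spikes. Hpgd (3.07) and Ptgs2 (-2.51) lie at the ends, and only Ptgr1, Pla2g4a and Slco2a1 lie inside the band.

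Scaling the arrays to 24 poly-A spike-in probe sets moved the median of all genes by 0.25, from 0.0088 to 0.26. With it Hpgd was at 3.32, Ptgs2 at -2.26, Ptgir at -1.93, Ptger2 at -1.40 and Ptger4 at 1.07. All 9 differences moved by that same amount, so they were unchanged relative to the median. Ptges (-0.53) and Ptgr1 (-0.26) no longer passed, and the small differences of Pla2g4a (0.15) and Slco2a1 (0.15) changed sign.

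The genes around these were taken from 7 lists by role, with 95 of 108 listed genes measured. Of the 95, 13 rose and 10 fell on modified PEEK by limma (adjusted p under 0.05), where 5.24% of all genes were higher and 5.15% lower, with a median difference of 0.0023, beside 0.0088 for all genes. With spike scaling 20 were higher and 2 lower. Each list below is to be read beside the same all-gene shares of 5.24% and 5.15%, or 10.4% in either direction. Among 11 terminal synthases and reductases 0 rose (0 also at an unadjusted p under 0.05 in limma) and 1 fell, the aldo-keto reductase gene Akr1b8 (from 10.01 ± 0.03 to 9.46 ± 0.04; SD, n = 3; limma adjusted p = 0.00532). Hpgds, the haematopoietic prostaglandin D synthase gene, did not pass (10.31 ± 0.05 and 10.23 ± 0.06), and neither did Ptges3, a prostaglandin E synthase and chaperone partner gene (6.82 ± 0.11 and 7.09 ± 0.43). Of 7 other genes of breakdown and transport 0 rose (1 at an unadjusted p under 0.05 in limma) and 1 fell, the cytochrome P450 gene Cyp4f13 (-0.54 ± 0.10 SE, limma adjusted p = 0.0107). The efflux transporter gene Abcc4 (7.67 ± 0.07 and 7.67 ± 0.08) and the reductase gene Ptgr2 (7.03 ± 0.09 and 7.33 ± 0.14) did not pass. With spike scaling Akr1b8 (adjusted p = 0.236) and Cyp4f13 (adjusted p = 0.257) did not pass, and Ptgr2 passed as higher (adjusted p = 0.0396), as it also did with an intensity trend or without the lowest 50% of genes. A share of 1 in 11 or 1 in 7 is near the 10.4% of all genes.

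Of 7 other receptor genes for prostanoids and their products, 0 passed in the limma fit (0 also at an unadjusted p under 0.05). At 10.4% of all genes, fewer than 1 call falls to a list of this size, so nothing particular to these receptors is read from the count. In all, 4 of them lay below the background on both surfaces. Ptger1, encoding EP1, had 6.35 ± 0.06 on pristine and 6.18 ± 0.25 on modified PEEK, and Tbxa2r, the thromboxane receptor gene, 5.52 ± 0.07 and 5.69 ± 0.21 (SD, n = 3). The list median was -0.0458.

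Of 22 genes of arachidonate release and supply, 4 rose (5.24% of all genes) and 4 fell (5.15% of all genes), with a median of -0.12. The secreted phospholipase gene Pla2g5 fell from 6.97 ± 0.07 to 5.84 ± 0.12 (2.19-fold, limma adjusted p = 0.000455), and Pla2g2e, another of that family, fell by 0.69 (limma adjusted p = 0.0199). The fatty acid desaturase gene Fads2, of the route that builds arachidonic acid, rose from 9.17 ± 0.04 to 10.26 ± 0.05 (2.12-fold, limma adjusted p = 0.0003), and Daglb, a diacylglycerol lipase gene, rose 1.67-fold (limma adjusted p = 0.00541). Lpcat3 (9.89 ± 0.05 and 9.92 ± 0.01) and Pla2g15 (8.26 ± 0.09 and 8.16 ± 0.11), at high signal, did not pass. Pla2g2e lost its call when pristine PEEK replicate 2, pristine PEEK replicate 3 or modified PEEK replicate 3 was left out, and with spike scaling (adjusted p = 0.141, the highest of its alternatives; the lowest was 0.00148). The list had 2 higher and 2 lower without pristine PEEK replicate 1, 2 and 1 without pristine PEEK replicate 2 or 3, 3 and 2 without modified PEEK replicate 3, and 5 and 1 with spike scaling.

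The leukotriene branch, which uses the same arachidonic acid, had 2 of 11 genes higher (5.24% of all genes) and 0 lower (5.15% of all genes; 0 also at an unadjusted p under 0.05 in limma), with a median of 0.0125. Alox5, encoding 5-lipoxygenase, the first enzyme of that branch, rose from 7.32 ± 0.07 to 8.48 ± 0.21 (2.23-fold, limma adjusted p = 0.000816). Cysltr1, a cysteinyl leukotriene receptor gene, rose from 6.35 ± 0.31 to 7.56 ± 0.17 (2.32-fold, limma adjusted p = 0.00282). Alox5ap, the partner protein of 5-lipoxygenase, had 9.80 ± 0.09 and 9.72 ± 0.17 and did not pass, like Lta4h (7.56 ± 0.06 and 7.57 ± 0.12), the hydrolase gene for leukotriene B4. Both rises were kept in each fit without 1 array (adjusted p up to 0.00544 for Alox5 and 0.0211 for Cysltr1).

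Of 23 genes of cyclic AMP signalling, 4 rose (5.24% of all genes) and 2 fell (5.15% of all genes), with a median of 0.13. Pde8a, a cyclic AMP phosphodiesterase gene, fell by 0.85 (1.81-fold, limma adjusted p = 0.00235). Gnas, a G protein subunit gene, was the other fall (from 9.58 ± 0.06 to 9.16 ± 0.07, limma adjusted p = 0.0226). It lost its call when any array except modified PEEK replicate 1 was left out. The call was also lost with median centring, spike scaling or the replicate number as a block. Arrb1, encoding the receptor-uncoupling protein beta-arrestin 1, rose 1.46-fold (limma adjusted p = 0.0107), Grk6, a receptor kinase gene, 1.49-fold (limma adjusted p = 0.0329) and Prkar2a, a protein kinase A regulatory subunit gene, 1.46-fold (limma adjusted p = 0.0493). Prkar2b, another regulatory subunit gene, was the remaining rise (from 6.67 ± 0.07 to 7.02 ± 0.03, limma adjusted p = 0.0488). Its call was lost whichever array was left out, with median centring and with the replicate number as a block. The kinase subunit genes Prkar1a (9.62 ± 0.07 and 9.42 ± 0.03) and Prkacb (8.93 ± 0.06 and 9.04 ± 0.11) did not pass. Prkar1a did pass as lower with an intensity trend (limma adjusted p = 0.0198). Grk6 was lost when any array except pristine PEEK replicate 1 was left out (limma adjusted p up to 0.104). Prkar2a was lost without any array except modified PEEK replicate 2 (up to 0.157). Arrb1 kept its call in each fit without 1 array but lost it with the replicate block (limma adjusted p = 0.0524). The list had 2 higher and 1 lower without pristine PEEK replicate 1, 1 and 1 when pristine PEEK replicate 2, pristine PEEK replicate 3 or modified PEEK replicate 3 was left out, 2 and 3 without modified PEEK replicate 1, 3 and 1 without modified PEEK replicate 2, and 7 and 1 with spike scaling.

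Of 14 genes that regulate Ptgs2 transcription or message, 3 rose (5.24% of all genes) and 2 fell (5.15% of all genes), with a median of 0.0806. Fos, encoding an AP-1 subunit, rose from 7.02 ± 0.02 to 7.99 ± 0.04 (1.96-fold, limma adjusted p = 0.000425). Rela, an NF-kB subunit gene, fell by 0.34 (limma adjusted p = 0.0492) and lost its call whichever array was left out. The call was also lost with median centring, spike scaling or the replicate number as a block. Cebpb (-0.31) and Cebpd (-0.34) did not pass (limma adjusted p = 0.0714 and 0.0899), although both passed as lower with an intensity trend. Of the 14 differences, 9 were above 0 and 5 below. The RNA-binding protein genes Zfp36l1 (1.80-fold, limma adjusted p = 0.0067) and Celf2 (1.40-fold, limma adjusted p = 0.0157) rose, and Zfp36, encoding the mRNA decay factor tristetraprolin, fell by 0.44 (limma adjusted p = 0.039). Atf2 (9.19 ± 0.08 and 9.16 ± 0.07) and Tial1 (8.86 ± 0.10 and 9.21 ± 0.03, limma adjusted p = 0.0563) did not pass, although Tial1 passed as higher under 8 alternatives, among them spike scaling and every filter on dim genes. Celf2 was lost without any pristine PEEK array or modified PEEK replicate 3 (limma adjusted p up to 0.0664). With the replicate number as a block Celf2 was lost too (0.0634). Zfp36 was lost without any array except modified PEEK replicate 1 (limma adjusted p up to 0.131). Its call was also lost with median centring (0.0535), spike scaling (0.461) or the replicate block (0.0744). Of the falls 1 remained without modified PEEK replicate 1 and 0 without any other array. With median centring, the replicate block or spike scaling 0 remained, and with spike scaling 5 genes were higher. The rises numbered 2 without any pristine PEEK array or modified PEEK replicate 3, and 2 with the replicate block.

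**Figure D3:**
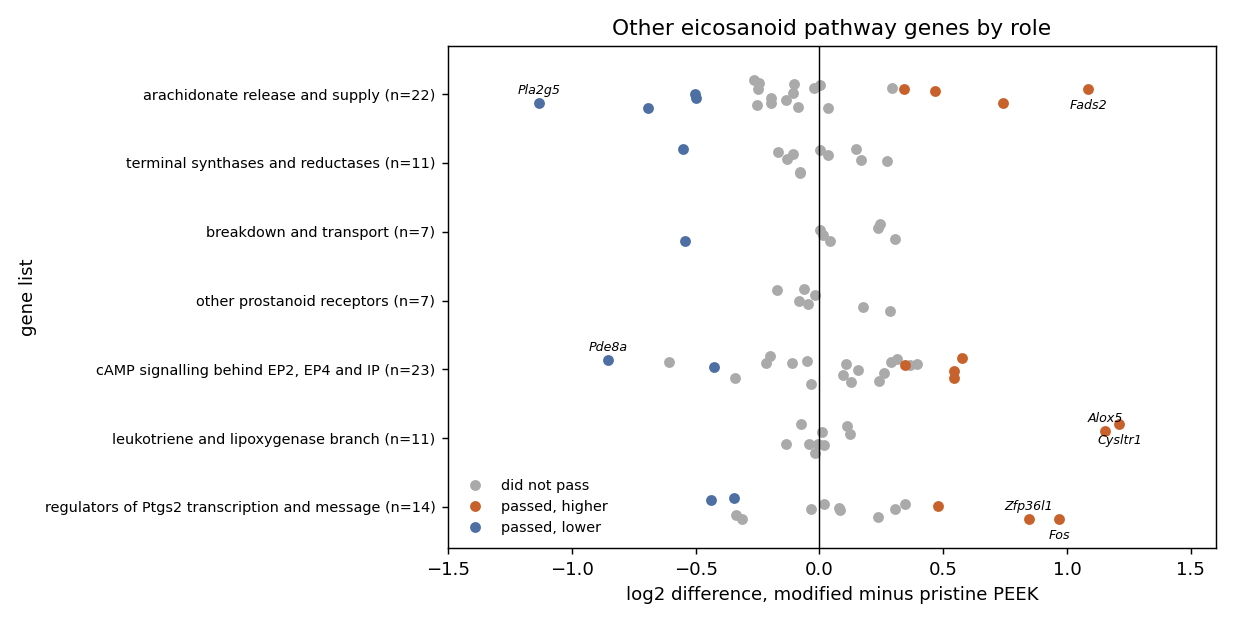
Log2 difference, modified minus pristine PEEK (x axis), of 95 other pathway genes, each a point, in 7 lists (y axis; vertical scatter within a list carries no value); orange and blue points passed an adjusted p under 0.05 in limma as higher and lower, grey did not. Cysltr1 (1.21), Alox5 (1.15) and Fads2 (1.09) lie farthest to the right and Pla2g5 (-1.13) farthest to the left. All 7 other receptor genes for prostanoids and their products, Pparg among them, are grey.

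The positions of the genes were then set beside the values of their neighbours, a comparison added after the members' values were seen. Ptgs2 and Pla2g4a lie next to each other, with no protein-coding gene between them on the RefSeq assembly, and point away from each other. Of this pair Ptgs2 was lower by 2.51 and Pla2g4a by 0.10. The nearest non-overlapping protein-coding genes on both sides of the 9 genes, leaving out members, were 16 genes, all measured. Of these, 15 did not pass in limma, 0 rose (0 also at an unadjusted p under 0.05) and 1 fell, a share near the 10.4% of all genes that passed, and their median difference was 0.0046. The one that fell was Gng8, a G protein gamma subunit gene beside Ptgir, named here after its value was seen, from 5.08 to 4.16 (-0.92 ± 0.14 SE, limma adjusted p = 0.00463, at most 0.0401 over its alternatives). Ptger2 lies beside Ptgdr, encoding a prostaglandin D2 receptor, which was below the background on both surfaces (3.12 and 3.04). The neighbours of Hpgd were Glra3 (2.07 and 2.08) and Cep44 (5.31 and 5.55), and those of Ptger4 were Ttc33 (7.85 and 7.87) and Dab2 (10.23 and 10.22); all of these did not pass.

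**Figure D4:**
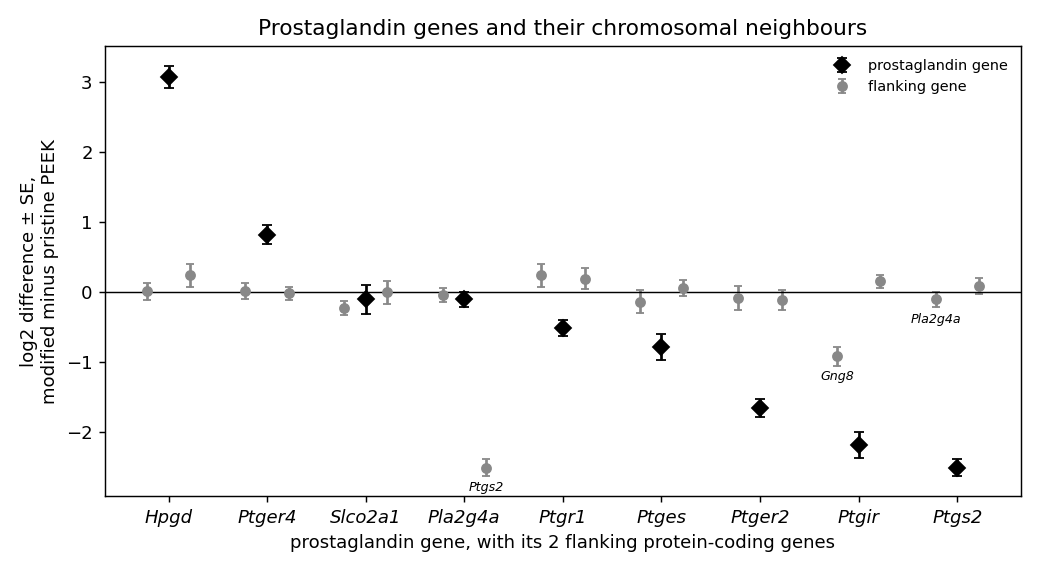
Log2 difference ± SE of the limma fit, modified minus pristine PEEK (y axis), for each of the 9 prostaglandin genes (black diamonds, x axis) and the protein-coding genes on either side (grey circles); Ptgs2 and Pla2g4a also appear as each other's neighbour. Among the grey circles other than Ptgs2, Gng8 beside Ptgir lies farthest from 0, at -0.92.

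As deposited, the arrays were alike in overall level. Medians over genes ran from 4.98 to 5.10, and 65.5% to 68.2% of genes lay above the background. RMA, named in the processing notes, normalizes quantiles, which evens out such levels. The likeness therefore cannot show whether the RNA samples were alike before it. With spike scaling the median difference of all genes was 0.26, beside 0.0088 without it. Macrophage markers were above the background on all arrays for 6 of the 7 measured, all but Mertk. Of 22 markers of fibroblasts, T cells, B cells, mast cells and neutrophils, 7 were above it on all arrays and 11 on no array. Adgre1 was higher (0.54, limma adjusted p = 0.00669) and Itgam lower (-0.59, limma adjusted p = 0.00544) on modified PEEK. Mertk passed as higher (limma adjusted p = 0.0496) but lay below the background on every array. The other macrophage markers did not pass. Whether the 3 cultures per surface were separate experiments is not stated in the labels, and p-values therefore cover the spread among these arrays alone, which can be technical. Precision is limited by there being 3 arrays per surface.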

How the data were processed

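Each deposited value is a log2 probe set signal. RMA, which corrects background, normalizes quantiles and summarises probes, is listed in the submitters' processing notes with no version or role; the log2 scale was read from the values. Biotinylated cDNA came from 250 ng of total RNA, per the labels' protocols. Genes were named through the platform annotation (19572 probe sets, 19505 genes, the probe set with the highest mean kept). No build is named for the array in these sources; printed coordinates are those of the RefSeq promoter table.

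The comparison of modified with pristine PEEK used limma 3.58.1 under R 4.3.3 (lmFit, eBayes, no trend or covariate, two-sided, Benjamini-Hochberg over all genes) on all 6 arrays. The members and lists were chosen with earlier results of these data known. From each list, up to 4 passing genes with the largest change and up to 2 non-passing genes with the highest mean were named. Gnas, Prkar2b, Rela, Cebpb and Cebpd were named besides, after their values were seen. On simulated data (19505 genes, 200 of them changed, 5 runs), the fit recovered 24.8% of changes of 0.5, 79.4% of 1 and 97.6% of 2. In the deposited data 10.4% of genes passed, a larger share than was changed in the simulation. Recovery in the deposited data can therefore differ. Folds are powers of 2 of differences. Alternatives covered normalization, spike scaling, dim-gene filters, probe set averaging, variance models, array weights, a replicate block and leaving out each array.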

Additional observations from a re-analysis of the deposited data

How the results depend on the processing

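All 9 genes except Pla2g4a and Slco2a1 kept their direction under all 17 alternatives, and Hpgd, Ptger4, Ptgs2, Ptger2 and Ptgir also kept their call. The genes of the 9 that passed as lower fell from 5 to 3 with spike scaling, and ranged from 3 to 4 (2 higher throughout) with 1 array left out. Of all genes, 1023 passed as higher and 1004 as lower. Spike scaling gave 1575 and 290, an intensity trend 1586 and 1719, a robust trend 1580 and 1702, and leaving out the lowest 50% of genes 1522 lower. With 1 array left out, 594 to 903 were higher and 548 to 1048 lower. Of the pathway genes, 13 higher and 10 lower, spike scaling gave 20 and 2, leaving out the lowest 50% of genes 21 higher, median centring 6 lower, and leaving out 1 array 7 to 13 higher and 4 to 10 lower. Of the genes flanking the 9, an intensity trend gave 1 higher and 2 lower. Some alternatives also use fewer arrays or test fewer genes, and the causes of the changed counts were not tested.

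The replicate number as a block gave 646 higher and 622 lower over all genes, 8 and 5 of the pathway genes, and 2 and 4 of the 9. Deviations of same-numbered arrays from their group means correlated at -0.17, -0.16 and 0.0685. Pristine replicates 1 and 2 each correlated better with another number, and replicate 3 did not (0.0685 against 0.0171). With 3 arrays per surface, these values cannot decide whether same-numbered arrays share a culture or a run. Signals near 3.72 limit what can be said of Ptgir on modified PEEK and of receptors below it.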
